A study of Mus musculus with 10 samples.

Results

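This account covers 10 genes of the p53 and p63 pathway of cell death and arrest in mouse oocytes that lack the H3K9 methyltransferase SETDB1. They are the p53 family members Trp53 and Trp63, the p53 inhibitor Mdm2, the arrest genes Cdkn1a and Ccng1, the death genes Bax, Bbc3 and Pmaip1, and the survival genes Bcl2l10 and Bcl2. The rule names the genes by their function and uses no measured value, although earlier results of these data were known when it was written. All 10 symbols were among the 24453 in the table, and 6 of them, Trp53, Trp63, Mdm2, Ccng1, Bax and Bcl2l10, were among the 11338 symbols whose mean reached 0.5 RPKM, the level set for testing. RPKM, reads per kilobase of transcript and per total of mapped reads, is a level corrected for length and depth.

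RNA-seq was carried out on fully grown oocytes at the germinal vesicle stage, before meiosis resumes, from mice on a C57Bl/6J background. Each library came from 1 mouse and a pool of 16 oocytes stripped of their surrounding cells and kept in medium with milrinone, which holds them at that stage. In the 4 mutant mice (Setdb1 f/-; Zp3-cre), 1 Setdb1 allele was floxed, the other was already deleted, and the Zp3-cre transgene recombined the floxed allele. The 4 mice of the first control group (Setdb1 f/+; Zp3-cre) carried the same transgene, a floxed and a wild-type allele. The 2 mice of the second control group (Setdb1 f/-) carried the floxed and the deleted allele without Cre. The Zp3 promoter is active in growing oocytes, so recombination follows the start of oocyte growth and spares the other cells of the ovary. The sources used here do not give the ages of the mice.

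A pair of related transcription factors guards the DNA of the germ line and the body. In most cells p53 is kept scarce by the ubiquitin ligase MDM2 and, once stabilised by damage, turns on genes for arrest (Cdkn1a, encoding p21) and death (Bax, Bbc3 encoding PUMA, Pmaip1 encoding NOXA). In resting oocytes this surveillance falls mainly to TAp63, the form of p63 with an N-terminal transactivation domain, which is held as an inactive dimer until it is phosphorylated and then kills the oocyte through PUMA and NOXA. BCL2 and several of its relatives bind and restrain the proteins that open the mitochondrial membrane. The oocyte-rich BCL2L10 belongs to the same family and is listed here with the survival genes, and its function was not tested. Control of both factors is largely at the protein level, which RNA measurements do not read.

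The Trp63 gene (chr16:25683763-25892102, plus strand, GRCm38) has 2 starts, and its products differ in the residues that the first exons encode. The deposited table held 8 Trp63 transcripts, 3 with the TA start and 5 with the ΔN start. The 2 junctions with the first shared exon (chr16:25820388-25820642) are printed because the values below turn on which start was transcribed. Capitals mark the last 42 bases that belong to 1 start alone, and lower case marks 18 bases of the shared exon.
TA start, exon chr16:25764164-25764296: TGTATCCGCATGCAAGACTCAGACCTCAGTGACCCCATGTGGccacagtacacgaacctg
ΔN start, exon chr16:25801916-25802101: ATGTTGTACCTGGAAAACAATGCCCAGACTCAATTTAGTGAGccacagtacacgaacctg
The exons of the TA start encode 108 codons before the shared exon. The ΔN start encodes 14, all 42 bases of which are shown from their ATG.

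p53-family proteins bind pairs of a 10-base unit called the p53 half-site, which has 3 purines, C, 2 bases that are A or T, G and 3 pyrimidines, so that a match on 1 strand is also one on the other. It was looked for in RefSeq promoter windows (GRCm38.p6) of 300 bases, from 250 before to 50 after each start. Windows were found for 7 of the 10 genes, 10 windows in all, and 5 windows held at least 1 half-site. Of all 32851 windows 8.36% did. The stretches around the matches are shown because they place the motif in both an arrest gene and genes of the p53 loop itself, with each half-site in capitals on the gene's own strand.
Trp53, chr11:69580259-69580318, plus strand: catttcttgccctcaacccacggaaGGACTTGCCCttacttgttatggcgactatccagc
Mdm2, chr10:117710910-117710969, minus strand: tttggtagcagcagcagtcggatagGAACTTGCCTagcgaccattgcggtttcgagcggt
Ccng1, chr11:40755437-40755496, minus strand: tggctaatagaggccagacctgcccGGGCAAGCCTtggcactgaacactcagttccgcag
Bax, chr7:45467065-45467124, minus strand: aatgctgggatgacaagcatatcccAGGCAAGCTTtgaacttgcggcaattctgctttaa
Cdkn1a, chr17:29090881-29090962, plus strand: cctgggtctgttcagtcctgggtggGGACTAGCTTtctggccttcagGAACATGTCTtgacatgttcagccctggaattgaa
Cdkn1a was the only one of these genes with 2 half-sites no more than 13 bases apart, which 0.0731% of all windows had. These half-sites were separated by 12 bases and ran from 73 to 42 bases before the start of its upstream window. Only exact matches are in capitals, so near matches beside them are unmarked. The Bcl2 and Bbc3 windows and the other Cdkn1a window (chr17:29093519-29093818) held no match. A match of letters in these windows is a description, and the windows leave out introns and distal promoter, where p53 sites of several of these genes are known.

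The libraries held between 45900000 and 72700000 reads, as recovered from the spacing of low values. Setdb1 was at 4.06, 2.55, 3.32 and 1.31 RPKM in the mutants, at 28.6, 25.7, 25.1 and 52.5 RPKM in f/+; Zp3-cre, and at 19.9 and 26.3 RPKM in f/-, so every mutant library was below every control (-3.20 on the log2(RPKM + 0.5) scale, exact two-sided permutation test, p = 0.0048, the smallest that 210 splits allow). Exons of Cers2 and Gm37500 overlap Setdb1 on the opposite strand, and the libraries did not mark strand. All 12 oocyte markers were tested genes and summed to between 6516 and 8505 RPKM in every library. Of 12 granulosa cell markers 7 were tested, and their list summed to between 76.1 and 112 RPKM. The 9 theca and stroma markers summed to between 0.959 and 3.93 RPKM, and 2 of them were at 0 in all libraries. The blood, immune and endothelial list summed to between 21.99 and 46.8 RPKM, with both haemoglobin genes at 0 throughout. Libraries of the mutant and f/- groups varied more than those of f/+; Zp3-cre: the median SD of log2 values over tested genes was 0.388, 0.385 and 0.191.

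None of the 6 tested genes passed the threshold of an adjusted p of 0.05 in limma when mutants were compared with all controls, a comparison in which 5.33% of all tested genes passed. None passed against f/+; Zp3-cre alone, where 4.89% of genes did, against f/- alone, where 4.84% did, or between the control genotypes, where 0.0706% did. At an unadjusted p under 0.05, 1 of the 6 passed in each of these comparisons, beside 2242, 2181, 2434 and 1584 of the 11338 genes. The median difference of the 6 between mutants and all controls was 0.01 on the log2 scale, with 3 above 0 and 3 below, beside 0.03 over all tested genes. Both comparisons with a single control group share their mutant libraries, and all values in RPKM are amounts relative to the other transcripts of a library, so fewer transcripts per oocyte cannot be told apart from a lower share.

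**Figure D1:**
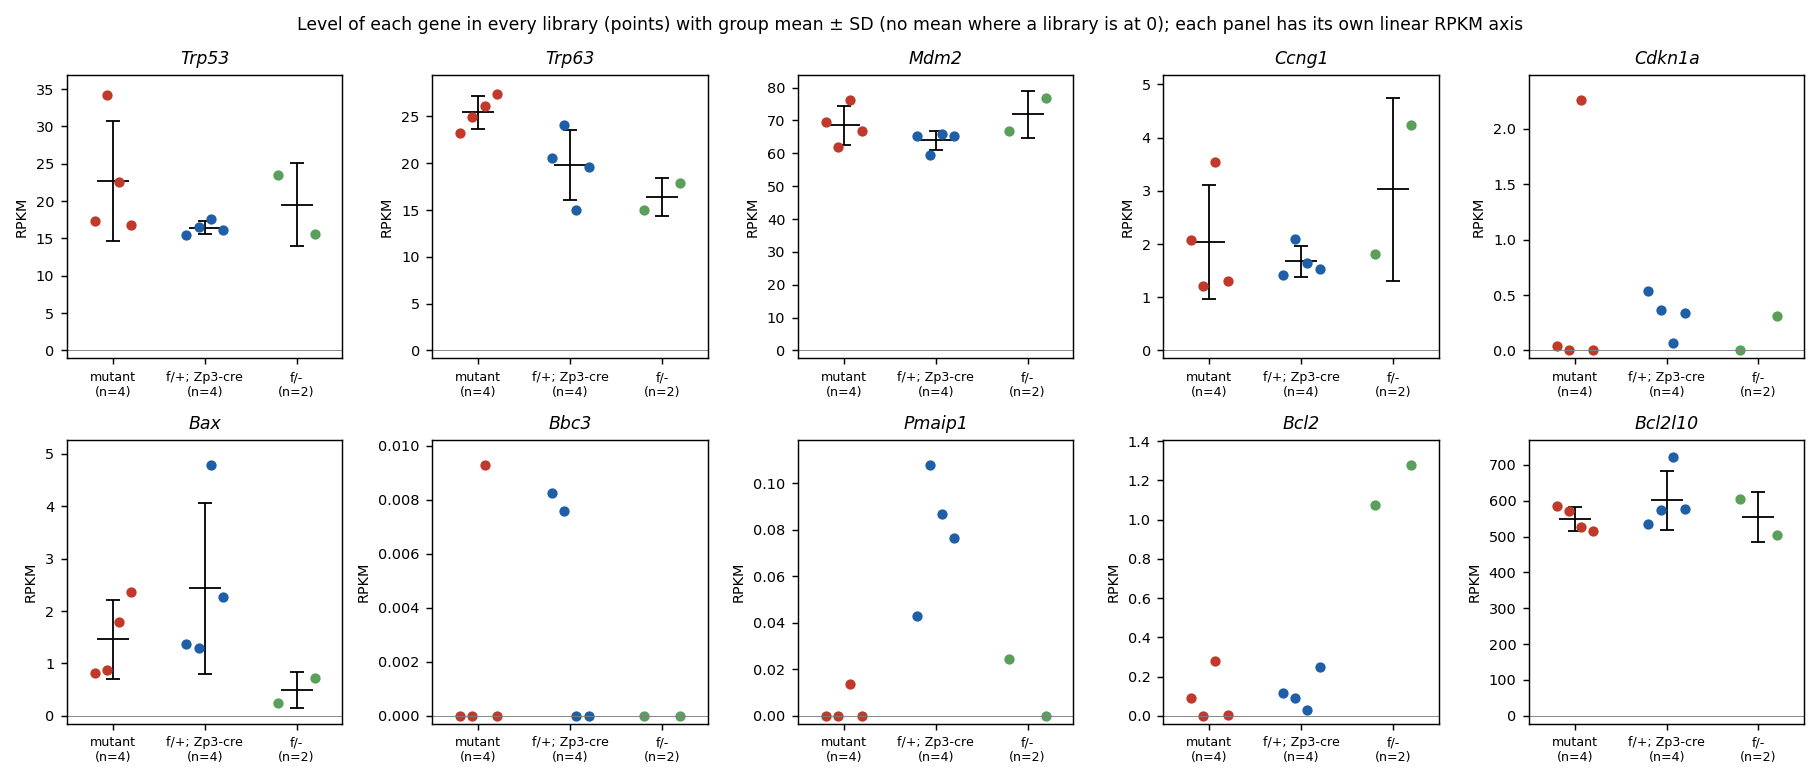
RPKM of the 10 genes (vertical axis, linear and scaled to each gene) in the 4 mutant, 4 f/+; Zp3-cre and 2 f/- libraries (points), with group mean ± SD where no library was at 0. Trp63 lies at 23.2 to 27.4 RPKM in the mutants and 14.97 to 24.0 in the controls, 1 mutant stands alone at 2.26 RPKM of Cdkn1a, and both f/- libraries stand above 1 RPKM of Bcl2.

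Trp53 (chr11:69580359-69591873, plus strand, GRCm38 as for all genes below), the p53 gene itself, averaged 19.6 RPKM, which ranked 2441 of 24453 symbols. Its 4 mutant libraries had 17.4, 34.2, 22.5 and 16.8 RPKM. The f/+; Zp3-cre libraries had 15.5, 16.6, 17.6 and 16.2 RPKM, and the f/- libraries had 23.5 and 15.6. The mutant mean of 22.7 ± 8.07 (SD, n = 4) against 17.5 ± 3.04 (SD, n = 6) in all controls rested on mutant 2, since the other 3 mutants lay within the control range. The difference was 0.32 ± 0.20 (SE) on the log2 scale, with a 95% interval from -0.10 to 0.75 (limma, adjusted p = 0.397). It was 0.11 without mutant replicate 2. A second row of the gene, NM_001127233, gave 32.5 RPKM in that library and from 14.9 to 23.0 in the others.

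Trp63 was the member that came nearest to the threshold. In its most abundant row, a TA transcript with a short 3′ end (NM_001127261), the mutants had 23.2, 24.95, 26.1 and 27.4 RPKM. The controls had 20.5, 24.0, 14.97 and 19.6 RPKM in f/+; Zp3-cre and 14.99 and 17.9 RPKM in f/-. All mutants were thus above both f/- libraries, as were 13.7% of tested genes, and 1 f/+; Zp3-cre library lay within the mutant range. The difference from all controls was 0.45 ± 0.15 (SE), with an interval from 0.13 to 0.78 and an unadjusted p of 0.00965, and it did not pass after adjustment over all genes (limma, adjusted p = 0.108). Over 27 alternatives that adjusted p lay between 0.0602 and 0.423. Against f/- alone the difference was 0.62 ± 0.19 (adjusted p = 0.0845, limma), against f/+; Zp3-cre alone 0.37 ± 0.16 (adjusted p = 0.215), and between f/- and f/+; Zp3-cre -0.25 ± 0.19 (adjusted p = 0.600).

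Which Trp63 row was read decided 1 of these calls. In the TA row with the long 3′ end (NM_001127259) the mutants had 17.3, 14.6, 16.9 and 19.1 RPKM, f/+; Zp3-cre had 13.1, 14.2, 10.3 and 11.7 RPKM, and f/- had 8.41 and 9.20 RPKM. Here no mutant value overlapped a control value, which held for 4.62% of tested genes in this direction. With that row standing for the gene, a choice added after seeing the data, Trp63 rose against f/- by 0.90 on the log2 scale (limma, adjusted p = 0.0218) and differed from all controls by 0.60 (adjusted p = 0.0602). The long ΔN row (NM_011641) had 16.3, 9.54, 15.4 and 14.6 RPKM in the mutants, 11.0, 11.2, 8.14 and 10.2 RPKM in f/+; Zp3-cre and 6.63 and 8.18 RPKM in f/-. Mutant 2 lay within the control range of that row, and the difference from all controls was 0.57 (adjusted p = 0.131).

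The rows share nearly all their exons, so a read in a shared exon counts toward both starts, and the rows themselves do not say which start was used. Subtracting the ΔN row from the TA row with the same 3′ end leaves the reads of the 849 bases in the 3 exons of the TA start less those of the 186 bases in the ΔN exon. Spread over the 849 bases, that remainder is a lower bound for the level of the TA exons, if the annotated lengths hold. For the short ΔN row the annotated length was cut by 12 bases, taken as skipped in both short rows. With that length the long and short pairs of rows gave the bound within 0.182% of each other. Both pairs hold the same exon difference, so their closeness is no independent check of the bound. From the long pair the bound was 19.0, 39.8, 21.5 and 40.1 RPKM in the mutants, 21.7, 27.5, 20.1 and 17.5 RPKM in f/+; Zp3-cre, and 16.5 and 12.8 RPKM in f/-. The TA exons, which mark the form known for oocytes, were thus covered in every library, at 12.8 RPKM or more. The level of the ΔN exon was not obtained. Mutants 2 and 4 were above every control and mutants 1 and 3 lay among them, and the difference of 0.58 on the log2 scale, a measure chosen after its values were seen, gave p = 0.0905 in an exact two-sided permutation test over the 210 splits.

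**Figure D2:**
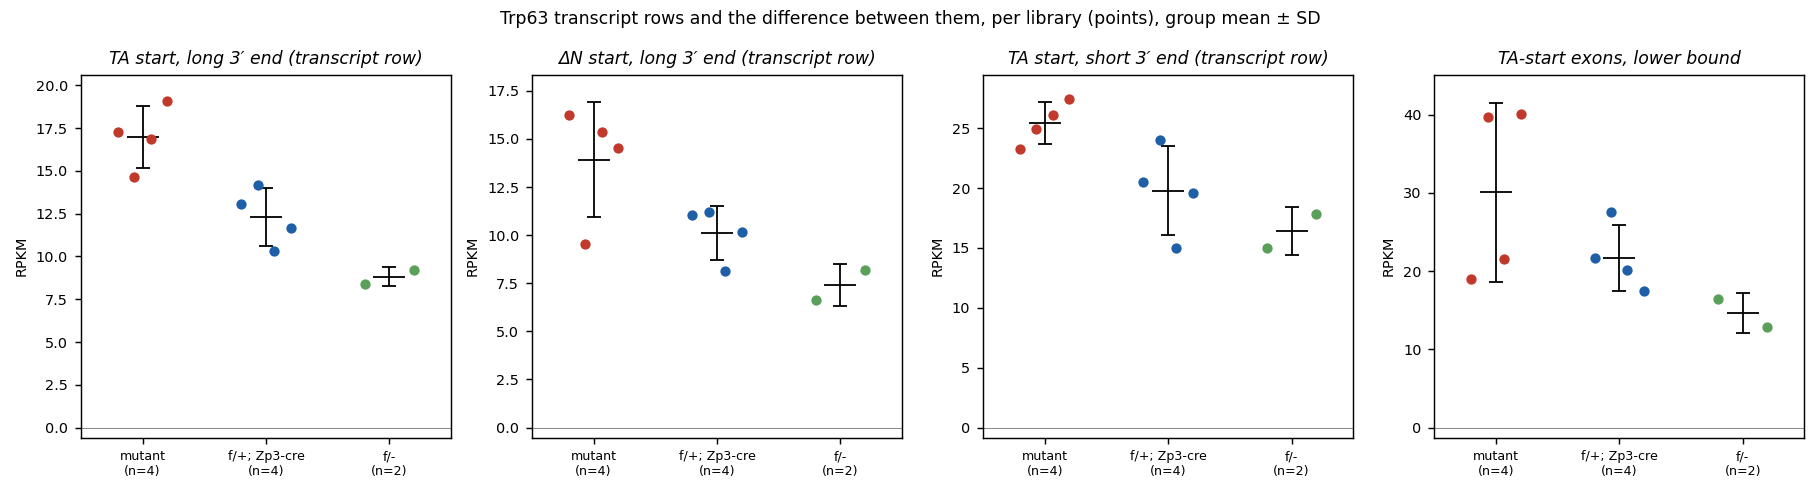
Trp63 in each library (points, RPKM on linear axes, group mean ± SD): the long TA row, the long ΔN row, the short TA row, and the lower bound for the exons of the TA start from the difference of rows. The 4 mutants lie above all controls in the long TA row (14.6 to 19.1 against 8.41 to 14.2 RPKM), while in the lower bound only mutants 2 and 4 do (39.8 and 40.1 RPKM).

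Mdm2 (chr10:117688875-117710758, minus strand), which encodes the ligase that marks p53 for degradation and is itself a p53 target, was among the steadiest transcripts measured. It had 69.4, 61.9, 76.1 and 66.8 RPKM in the mutants, 65.3, 59.5, 65.8 and 65.1 RPKM in f/+; Zp3-cre, and 66.7 and 76.9 RPKM in f/-. The mutants overlapped both control groups. Both f/- libraries were above every f/+; Zp3-cre library, as held for 11.3% of tested genes (0.16 on the log2 scale, limma, adjusted p = 0.585). The SD over all libraries was lower in 0.979% of tested genes. The difference from all controls was 0.04 ± 0.10 (SE), with an interval from -0.17 to 0.26 on the log2 scale (limma, adjusted p = 0.859).

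Ccng1 (chr11:40748552-40755311, minus strand) encodes cyclin G1, a p53 target that acts back on MDM2. It was low, at 2.07, 1.21, 3.54 and 1.31 RPKM in the mutants, 1.42, 2.09, 1.65 and 1.54 RPKM in f/+; Zp3-cre, and 1.81 and 4.24 RPKM in f/-. The groups overlapped, with 1 f/- library highest and mutant 3 next. The difference was -0.06 ± 0.34 (SE), and its interval from -0.79 to 0.66 leaves room for a change of either sign (limma, adjusted p = 0.946).

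Cdkn1a (chr17:29090976-29100727, plus strand), whose product p21 stops the cell cycle, was low, with a mean under the level for testing. The mutants had 0.0426, 0, 2.26 and 0 RPKM, f/+; Zp3-cre had 0.536, 0.369, 0.0647 and 0.341 RPKM, and f/- had 0 and 0.309 RPKM. In reads these are about 5, 0, 236 and 0 in the mutants, 63, 47, 7 and 45 in f/+; Zp3-cre, and 0 and 43 in f/-. A single mutant pool thus carried nearly all the Cdkn1a reads of its genotype. The other 3 mutants, at 0 to about 5 reads, overlapped f/- and lay close to the lowest f/+; Zp3-cre library, at about 7 reads. With no filter on low values the difference of Cdkn1a from all controls was 0.07 ± 0.48 (SE; limma, adjusted p = 0.950), and with rows summed -0.05 ± 0.62 (adjusted p = 0.980). The transcript NM_001111099 of the same gene showed it too, with 2.22 RPKM in mutant 3 and at most 0.494 in any other library. That library had a granulosa marker sum of 92.5 RPKM, within the 78.1 to 112 of the mutants, and Serpine2 (62.9 RPKM) made up most of it. Single markers differed. Foxl2 was at 0.371 RPKM there and at most 0.0173 in any other library, while Amh (0.198) and Fshr (0.722) lay within the range of the other mutants. The part of other cells in the Cdkn1a value was not tested. Exons of AC167363.2 overlap Cdkn1a on the opposite strand.

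Bax (chr7:45461697-45466898, minus strand), the pore-forming death effector, was low and uneven. The mutants had 0.807, 0.880, 1.79 and 2.36 RPKM, f/+; Zp3-cre had 1.37, 1.30, 4.78 and 2.27 RPKM, and f/- had 0.250 and 0.729 RPKM, about 10 and 46 reads. Both f/- libraries were below all the others, which held for 7.28% of tested genes. The difference of mutants from all controls was -0.03 ± 0.47 (SE), with an interval from -1.04 to 0.99 (limma, adjusted p = 0.984), and it had opposite signs against f/+; Zp3-cre (-0.51, adjusted p = 0.553) and f/- (0.95, adjusted p = 0.307). Between the control genotypes it was -1.46 ± 0.51, with an unadjusted p of 0.0135 that did not pass over all genes (adjusted p = 0.231). Exons of Gm45808 lie over Bax on the same strand, so reads of the 2 cannot be told apart.

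**Figure D3:**
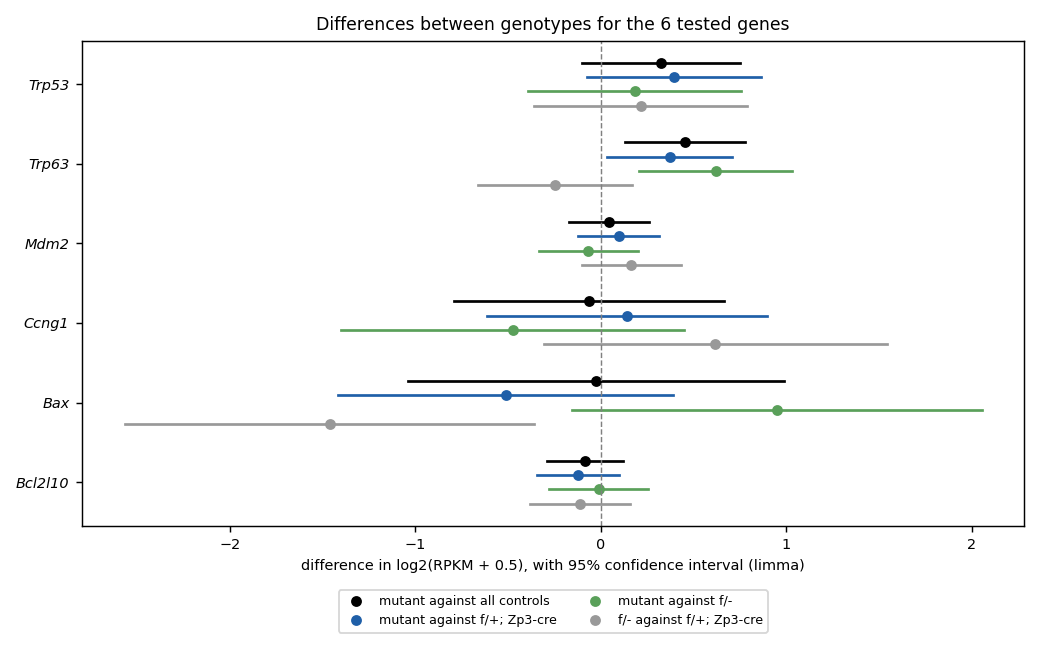
Differences on the log2(RPKM + 0.5) scale (points) with 95% intervals from limma for the 6 tested genes in 4 comparisons, given by colour. The intervals are narrow around 0 for Mdm2 (-0.17 to 0.26) and Bcl2l10 (-0.29 to 0.12) against all controls and wide for Bax (-1.04 to 0.99), and that of Trp63 (0.13 to 0.78) does not include 0, although its adjusted p of 0.108 did not pass.

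Bbc3 (chr7:16308393-16318205, plus strand) and Pmaip1, which encode PUMA and NOXA, the proteins through which TAp63 kills oocytes, were the scarcest of the 10. Bbc3 was at 0 in 7 of 10 libraries, and the values of 0.00927 RPKM in mutant 3 and of 0.00823 and 0.0076 RPKM in f/+; Zp3-cre replicates 1 and 2 stand for about 1 read each. Pmaip1 had 0, 0, 0.0138 and 0 RPKM in the mutants, 0.0429, 0.108, 0.0867 and 0.0765 RPKM in f/+; Zp3-cre, and 0.0246 and 0 RPKM in f/-. These are about 2 reads in mutant 3, from 7 to 20 reads in each f/+; Zp3-cre library, and 3 in the first f/- library. Every mutant lay below every f/+; Zp3-cre library, as was true of 7.7% of the 19291 genes above 0 in any library, and the mutants overlapped f/-. With no filter on low values limma called Pmaip1 lower in mutants than in f/+; Zp3-cre (-0.20 on the log2 scale, adjusted p = 0.0280), as it did 1.35% of genes in that direction, but not against all controls (adjusted p = 0.242) or f/- (adjusted p = 0.889). The added 0.5 RPKM is many times these values, so that difference is small by construction.

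Bcl2l10 (chr9:75347758-75351632, plus strand), also called Diva or Boo, encodes a BCL2 relative with little expression outside germ cells and was the most abundant of the 10. Its mean of 571 RPKM ranked 19 of all 24453 symbols. It had 585, 570, 527 and 514 RPKM in the mutants, 534, 573, 722 and 577 RPKM in f/+; Zp3-cre, and 604 and 506 RPKM in f/-. All 3 groups overlapped, and the difference from all controls was -0.09 ± 0.10 (SE), with an interval from -0.29 to 0.12 (limma, adjusted p = 0.668).

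Bcl2 (chr1:106538178-106714274, minus strand), the founding survival gene of the family, was low, with its highest values in f/-. The mutants had 0.0883, 0, 0.280 and 0.00237 RPKM, f/+; Zp3-cre had 0.117, 0.0896, 0.0319 and 0.248 RPKM, and f/- had 1.07 and 1.28 RPKM, which are about 355 and 667 reads. The 2 f/- libraries were above all 8 others, which held for 2.86% of genes above 0 in any library, and the mutant and f/+; Zp3-cre values overlapped. Its mean was below the level for testing. With no filter limma called Bcl2 lower in mutants than in f/- (-1.52, adjusted p = 0.00877), as it did 0.612% of genes in that direction. It did not call Bcl2 against f/+; Zp3-cre (-0.08, adjusted p = 0.852) or against all controls (-0.56, adjusted p = 0.551), and f/- against f/+; Zp3-cre gave 1.44 (adjusted p = 0.0511). The shorter transcript NM_177410 was high in only 1 of the f/- libraries, at 2.41 RPKM against 0.0518 in the other and at most 0.153 elsewhere. The f/- libraries also had the highest sums of the blood, immune and endothelial list (45.4 and 46.8 RPKM, beside at most 42.7 in any other library) and the lowest sums of granulosa markers (76.1 and 77.9 RPKM, beside at least 78.1). Pecam1 and C1qb made up most of the former sums. Pecam1 (27.1 and 22.8 RPKM) and Tie1 (1.89 and 2.99) were highest in f/-. Other genes of that list did not follow: Cd68 (3.24 and 0.779) lay within the range of the other libraries, Kdr (0.0838 and 0.386) was not raised, and Ptprc was at 0. The part of other cells in the Bcl2 and Bax values was not tested. Exons of D630008O14Rik overlap Bcl2 on the opposite strand.

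The genes around these members were read from 6 lists of 135 symbols, with 133 in the table and 90 tested. Of the 90, 3 rose and 3 fell against all controls, which is 6.67% beside 5.33% of all genes (3.1% higher and 2.22% lower), and their median difference was 0.01. Against f/+; Zp3-cre alone 2 rose and 5 fell, beside 2.76% and 2.13% of all genes. Against f/- alone 2 rose and 2 fell, beside 3.25% and 1.59%. Between the control genotypes none of the 90 passed in limma, where 8 of all 11338 genes did, and 11 of the 90 had an unadjusted p under 0.05, beside 1584 of all genes.

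Among 29 tested regulators of p53, 2 fell and none rose in limma, 6.9% beside 5.33% of all tested genes. At an unadjusted p under 0.05, 6 were lower and 0 higher, beside a similar share, 2242, of all 11338 genes in either direction. That count over all genes was not split by direction, so the 6 lower ones have no background of their own. Mdm4, which encodes the partner of MDM2 that masks the p53 activation domain, was at 343, 317, 353 and 354 RPKM in the mutants, 442, 432, 381 and 455 RPKM in f/+; Zp3-cre, and 386 and 419 RPKM in f/-. All mutants were below all controls, as were 3.56% of tested genes, but by a small margin: the difference was -0.29 ± 0.08 (SE; limma, adjusted p = 0.0464), and the call was lost in 12 of 20 alternatives, among them leaving out any 1 mutant, with adjusted p between 0.00891 and 0.233. In RPKM, a level per length, Mdm4 (342 ± 17.3 in mutants, 419 ± 30.1 in controls, SD, n = 4 and 6) was well above Mdm2 (68.5 ± 5.92 and 66.6 ± 5.66). Trp53bp1, whose product binds p53 and marks DNA breaks, had 9.45, 7.29, 8.49 and 6.83 RPKM in the mutants. It had 11.8 to 13.4 RPKM in the controls, with no overlap, as in 3.56% of tested genes. It fell by 0.65 on the log2 scale (limma, adjusted p = 0.0223), a call lost in 5 of 20 alternatives, which were the replicate block and leaving out f/+; Zp3-cre replicate 1, 2 or 4 or mutant replicate 4, with adjusted p between 0.00762 and 0.0695 over the 20. Exons of Tubgcp4 overlap it on the opposite strand, and the libraries did not mark strand. The most abundant other regulators, the kinase genes Csnk1e (124 ± 29.6 in mutants, 107 ± 8.84 RPKM in controls, SD, n = 4 and 6) and Chek1 (81.9 ± 6.80 and 91.7 ± 12.3 RPKM), did not pass (limma, adjusted p = 0.470 and 0.512). Trp73, the third member of the p53 family, had 3.48 ± 0.740 RPKM in mutants and 3.46 ± 0.866 in controls (SD, n = 4 and 6), a difference of 0.02 with an interval from -0.50 to 0.54.

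In the list of p53 and p63 targets 28 genes were tested, and 2 rose and none fell in limma, 7.14% beside 5.33% of all tested genes. At an unadjusted p under 0.05, 2 were higher and 2 lower, beside 2242 of all 11338 genes in either direction. Of the 2 that rose, Ddit4 is a target, while Abl1, on the same list, encodes a kinase that acts on p53-family proteins. The 7.14% thus counts Abl1 as if it were a target. Ddit4, which encodes the mTORC1 inhibitor REDD1, had 73.7, 44.8, 37.1 and 43.8 RPKM in the mutants, 30.2, 31.4, 39.1 and 28.0 RPKM in f/+; Zp3-cre, and 23.6 and 21.9 RPKM in f/-. Mutant 3 lay within the control range, the difference was 0.75 ± 0.20 (SE; limma, adjusted p = 0.0414), and the call was lost in 14 of 20 alternatives, with adjusted p up to 0.115. Abl1, a tyrosine kinase gene, had 13.2, 10.7, 11.8 and 11.4 RPKM in the mutants, 6.91, 7.03, 6.27 and 5.38 RPKM in f/+; Zp3-cre, and 8.58 and 5.5 RPKM in f/-. Its mutant and control values did not overlap, which held for 4.62% of tested genes in this direction. It rose by 0.80 ± 0.18 (SE, limma, adjusted p = 0.0180), a call lost without f/+; Zp3-cre replicate 4 or without mutant replicate 1, with adjusted p up to 0.0590. Exons of Gm13427 overlap it on the opposite strand. An action of the c-ABL kinase on TAp63 in damaged oocytes has been reported, and no link between Abl1 and Trp63 was tested here. The most abundant targets did not pass: Foxo3, a transcription factor gene that keeps follicles dormant, had 111 ± 13.5 RPKM in the mutant and 107 ± 12.2 in the control libraries, Trp53inp2 at 60.4 ± 1.67 and 55.6 ± 9.51, and Rrm2b at 36.8 ± 1.97 and 41.5 ± 5.39 (SD, n = 4 and 6).

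None of the 11 other BCL2 family genes tested passed in limma, where 5.33% of all tested genes did. At an unadjusted p under 0.05 there were 2, both higher, beside a similar share, 2242, of all 11338 genes in either direction. The median difference of the 11 was 0.23 on the log2 scale beside 0.03 over all genes. Bcl2l1, the BCL-XL survival gene, had 30.6 ± 8.34 RPKM in mutants and 25.9 ± 3.39 in controls (SD, n = 4 and 6; limma, adjusted p = 0.557), Bnip3l 13.2 ± 3.50 and 11.4 ± 1.13 (adjusted p = 0.639), and Bcl2l13 13.9 ± 1.91 and 10.9 ± 0.793 (adjusted p = 0.216). Bcl2l11, which encodes the killer protein BIM and is named after its values were seen, had 10.9, 14.9, 12.3 and 13.4 RPKM in the mutants against 2.83 to 9.69 RPKM in the controls. It did not pass (0.86 ± 0.29, SE, limma, adjusted p = 0.111). Mutant and control values did not overlap for Bcl2l11 or for Bcl2l13, which held for 4.62% of tested genes in this direction. None of 16 tested caspase and apoptosome genes passed in limma either (1 had an unadjusted p under 0.05). The inhibitor of apoptosis genes Birc5 (survivin, 216 ± 19.4 and 225 ± 49.4 RPKM) and Birc3 (139 ± 9.74 and 139 ± 7.67 RPKM) led that list, and Birc6 had 10.8 ± 1.34 and 11.9 ± 1.07 RPKM (SD, n = 4 and 6 for each).

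Of the tested members and listed genes, the 2 with the largest differences between mutants and all controls were both among the 5 tested death receptor genes, of which 1 rose and 1 fell. Of all tested genes 3.1% rose and 2.22% fell. Tnfsf10, which encodes TRAIL, a ligand that triggers death through its receptors, had 3.71, 4.58, 5.08 and 5.62 RPKM in the mutants, 0.523, 0.589, 0.429 and 0.379 RPKM in f/+; Zp3-cre, and 0.260 and 0.487 RPKM in f/-. Every mutant was several times above every control, where 4.62% of tested genes had every mutant above every control. The difference was 2.47 ± 0.26 (SE, limma, adjusted p = 4.9e-05), with adjusted p up to 0.000957 over 20 alternatives, all past the threshold. It passed against each control group alone (2.41 and 2.59), and between the control groups the difference was -0.17 (limma, adjusted p = 0.852). Tnfrsf10b, the listed gene for a TRAIL receptor, was at 0 in every mutant and at most 0.0256 RPKM in any library. Tnfrsf21, which encodes death receptor 6, had 0.364, 0, 0.0960 and 0.0047 RPKM in the mutants, 3.67, 3.24, 4.32 and 4.38 RPKM in f/+; Zp3-cre, and 1.04 and 1.39 RPKM in f/-. It fell by 2.41 ± 0.39 (SE, limma, adjusted p = 0.00215), and passed in 19 of 19 alternatives that tested it. Mutant and control values did not overlap, which held for 3.56% of tested genes in this direction. The f/- libraries were intermediate (f/- against f/+; Zp3-cre -1.36, limma, adjusted p = 0.143). The adaptor genes Fadd (9.06 ± 6.08 and 6.80 ± 1.89 RPKM) and Ripk1 (6.03 ± 1.85 and 5.90 ± 0.724 RPKM) did not pass. Cflar, which encodes the inhibitor c-FLIP, had 1.5 ± 0.220 RPKM in mutants and 3.39 ± 1.25 in controls (SD, n = 4 and 6). Each mutant was below every control, as in 3.56% of tested genes, with a difference of -0.91 ± 0.28 (SE, limma, adjusted p = 0.0760).

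**Figure D4:**
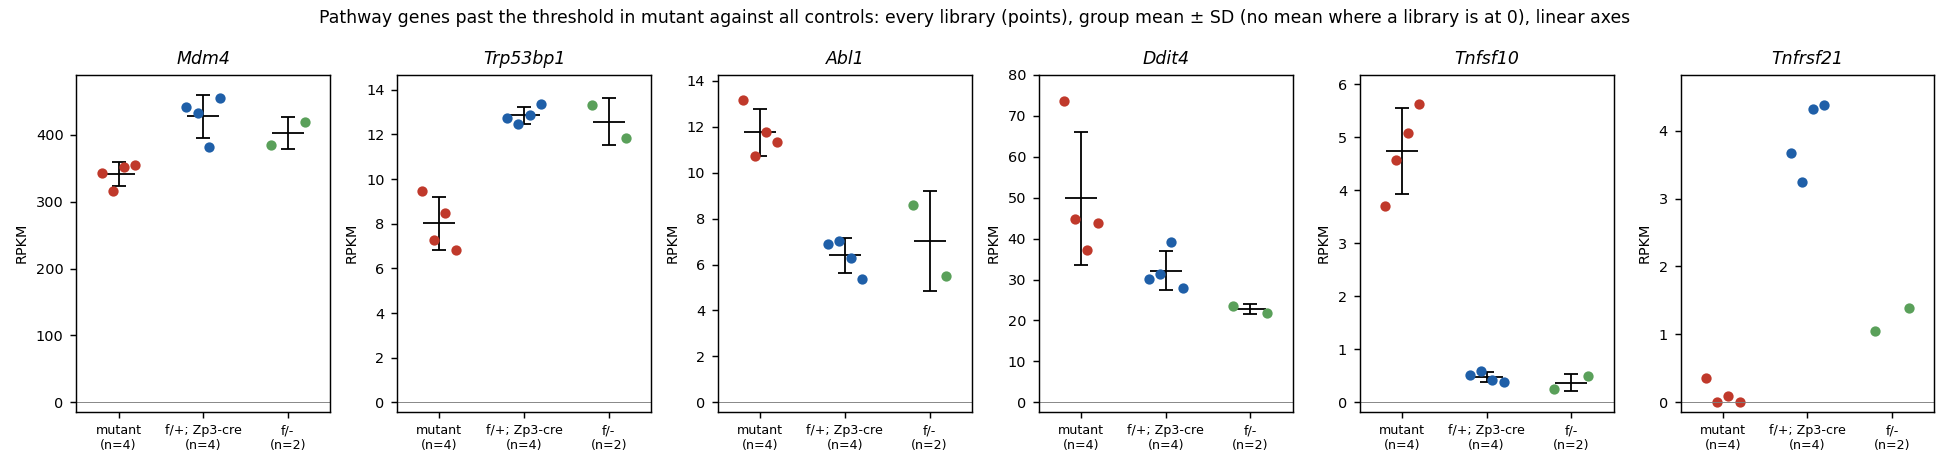
RPKM (vertical axes, linear) of the 6 pathway genes that passed the threshold in mutants against all controls, in every library (points), with group mean ± SD where no library was at 0. Tnfsf10 (3.71 to 5.62 against at most 0.589 RPKM) and Tnfrsf21 (at most 0.364 against at least 1.04 RPKM) are far apart, Mdm4 is separated by a small margin (at most 354 against at least 381 RPKM), and Ddit4 overlaps.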

How the data were processed

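Oocytes of 10 mice were profiled. Per the labels' protocols, RNA was prepared with RNeasy Micro columns, amplified as cDNA by NuGen Ovation RNA-Seq V2, and sequenced from TruSeq DNA libraries, which carry no strand information. The values deposited by the authors are RPKM for 34768 RefSeq transcripts. Named in the submitters' processing notes are bcl2fastq 1.8.3, STAR and mm10; the counting tool was not given in these sources. The row with the highest mean stood for each symbol. Tests were run on log2(RPKM + 0.5), which understates changes of low genes, with limma-trend (limma 3.58.1, R 4.3.3), for symbols averaging 0.5 RPKM or more, with Benjamini-Hochberg adjustment over all 11338 and a threshold of 0.05. A model of 2 levels compared mutants with all controls, and a model of 3 groups with a shared spread gave the other comparisons. Read numbers were recovered from the steps between low values and GENCODE M21 lengths, for 97.6% of rows, with 68.5% to 73.3% of low values within 0.1 of a whole read, too few for a count test. Exon positions follow that annotation (GRCm38). Only the limma fit was tested on simulated data, with the same spread per gene in every group, unlike these libraries. All members were described, and of each list the genes past the threshold and the 3 with the highest mean. Members and lists were chosen with earlier results of these data known. Alternatives varied the pseudocount, filter, scaling, trend, weights, rows, block and libraries.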

Additional observations from a re-analysis of the deposited data

Results flagged for a closer look

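Of 34 groups of 4 libraries checked, over the 10 genes, the 6 pathway genes that passed and Setdb1, 5 held a library far from the others, and chance flags about 1 in 20. Mutant replicate 3 stood apart with 2.26 RPKM of Cdkn1a, where the other mutants had at most 0.0426. The same library was the only mutant above 0 for Bbc3 (0.00927 RPKM, about 1 read) and for Pmaip1 (0.0138 RPKM, about 2 reads). Because the other 3 mutants were at exactly 0 for these genes, any read in 1 library would have set it apart, so the chance rate does not apply to them. In f/+; Zp3-cre, replicate 2 was lowest for Mdm2 at 59.5 RPKM, and replicate 4 was highest for Setdb1 at 52.5 RPKM.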

How the results depend on the processing

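No tested member passed against all controls or between control genotypes under any alternative. With no filter on low values 1 member passed against f/+; Zp3-cre (Pmaip1) and 1 against f/- (Bcl2); 1 passed against f/- with rows summed per symbol (Bcl2), and 1 with Trp63 read from either long TA row, a choice added after seeing the data. The 6 pathway genes that passed became 10 with array weights, 3 with the replicate block, and from 2 (without f/+; Zp3-cre replicate 4) to 8 with 1 library left out; they were 3 without f/+; Zp3-cre replicate 1 or 2 and without mutant replicate 1 or 4. Same-numbered libraries did not deviate together (correlations from -0.05 to 0.03), so the numbers were not taken as pairs. Differences that changed sign, none past the threshold, were those of Bax against all controls (0.048 with a pseudocount of 0.1 RPKM, -0.29 to 0.27 with 1 library left out), Bcl2l10 against all controls (0.0015 with quantile normalization), against f/- (0.14 with quantile normalization, -0.14 to 0.12 with 1 library left out) and between control genotypes (-0.24 to 0.017), Ccng1 against all controls (0.39 with array weights, -0.32 to 0.12 with 1 library left out), against f/- (-0.99 to 0.044) and against f/+; Zp3-cre (-0.11 to 0.30), Mdm2 against all controls (-0.018 with median centring, -0.041 with quantile normalization, -0.0091 to 0.090 with 1 library left out) and against f/- (-0.17 to 0.034), and Trp53 against f/- (-0.11 to 0.47) and between control genotypes (-0.075 to 0.50). Over all genes, 604 passed against all controls (352 higher, 252 lower), 1388 with array weights, 399 with no filter, 376 with the block, and 361, 357 and 379 without f/+; Zp3-cre replicates 1, 2 and 4. Median centring gave 303 higher and 339 lower, and quantile normalization 322 and 337. Between control genotypes 843 passed without f/- replicate 1, beside 8, and 549 against f/- became 52 with array weights. The causes were not tested. Depth limits what can be said of Bbc3, at no more than about 1 read a library, and of Pmaip1, at no more than about 20.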
